A study of Mus musculus with 8 samples.

Results

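The levels of 10 transcription factor genes that act in the neural crest, *Sox9*, *Sox10*, *Tfap2a*, *Tfap2b*, *Snai1*, *Snai2*, *Twist1*, *Msx1*, *Msx2* and *Ets1*, were compared between single wild-type mouse embryos at E8.5. Their probes were found by matching the RefSeq accession of each non-control probe to a gene symbol, which gave 12 probes for the 10 genes among 55681 different probes for 20660 named genes on the array. *Tfap2a* and *Ets1* had 2 probes each and the other 8 genes had 1. Whole-embryo RNA was hybridised to a one-colour Agilent 8x60K array, 1 array per embryo. The question was whether the genotype of the father leaves a trace in embryos that carry no mutation themselves. All 8 embryos were *Eed* wild type, of mixed C57bl6/129 background, from wild-type mothers. The WT father group held 4 embryos of *Eed* wt/wt fathers and the HET father group held 4 embryos of *Eed* hypo/wt fathers, each with 2 females and 2 males. The fathers' hypomorphic allele, l7Rn5-1989SB, is a chemically induced point mutation in *Eed*, a core component of the Polycomb Repressive Complex 2, and was carried by the HET fathers in 1 copy. The colony also carried an *Oct4*GFP reporter transgene, and whether these embryos had it is not given in the sources used here. In the embryo codes, 3 of the 4 WT father embryos share their first part and the other codes all differ, and the number of fathers per group is not settled by the sources used here, so some embryos may share a father.

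The neural crest forms at the border between the neural plate and the surface ectoderm, and its cells leave the neural folds and migrate to form peripheral neurons and glia, pigment cells and much of the skeleton of the face. The AP-2 and Msx factors act at the border and in early crest cells, Sox9 and Sox10 follow in specified crest, Snai1, Snai2 and Twist1 repress epithelial genes as cells become mesenchymal, and Ets1 takes part in the exit of cranial crest. At E8.5 cranial crest is being specified and starts to migrate. None of the 10 genes is active in crest alone. *Twist1* and *Snai1* are also made in mesoderm, *Ets1* in endothelium, *Tfap2a* in surface ectoderm and *Sox9* in the notochord and early cartilage precursors. In whole embryos, fewer cells of a type and less RNA per cell cannot be told apart.

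Promoter sequence was read from RefSeq (build GRCm38.p6) for 6 of the genes, and none was held for *Sox9*, *Sox10*, *Snai2* and *Ets1*. The last 170 bases before the start are printed for *Snai1* and *Tfap2b*, which each varied closely with another regulator across embryos, for *Twist1*, which had one of the larger differences between the sexes, and for the outermost of 2 starts of *Tfap2a*. Capitals mark CANNTG (the E-box, some forms of which Snail and Twist proteins read), the letters TATAAA, the CCAAT box and the GC box GGGCGG, on either strand. Sequences run 5′ to 3′ along the gene.
Snai1, chr2:167538025-167538194, plus strand: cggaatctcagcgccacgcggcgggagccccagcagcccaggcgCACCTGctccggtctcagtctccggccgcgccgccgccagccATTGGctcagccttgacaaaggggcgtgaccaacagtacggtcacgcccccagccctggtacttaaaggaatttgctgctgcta
Tfap2b, chr1:19211884-19212053, plus strand: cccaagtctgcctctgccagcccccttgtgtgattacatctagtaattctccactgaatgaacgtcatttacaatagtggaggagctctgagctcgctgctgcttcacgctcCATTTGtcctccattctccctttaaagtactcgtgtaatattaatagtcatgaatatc
Twist1, chr12:33957501-33957670, plus strand: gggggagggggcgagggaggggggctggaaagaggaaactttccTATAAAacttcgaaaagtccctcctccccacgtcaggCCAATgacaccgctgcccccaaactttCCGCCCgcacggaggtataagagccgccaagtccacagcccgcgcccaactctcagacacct
Tfap2a, chr13:40734921-40735090, minus strand: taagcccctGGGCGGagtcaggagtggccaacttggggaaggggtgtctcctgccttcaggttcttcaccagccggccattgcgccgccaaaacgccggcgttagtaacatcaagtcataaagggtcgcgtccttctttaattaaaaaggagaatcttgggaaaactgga

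The *Snai1* window was 66.5% G and C, that of *Twist1* 61.2%, that of *Tfap2a* 53.5% and that of *Tfap2b* 44.7%, beside a median of 53.5% for the same window of 32851 promoters. Over the whole 250 bases upstream, CANNTG was found in 4 of the 7 promoter windows of the regulators (*Tfap2a* has 2) and in 66.2% of all promoters. Its form CACCTG, preferred by Snail proteins, was found in 2 of 7, *Snai1* and *Msx1*, and in 17.2% of all. In *Snai1* it lay 126 to 121 bases before the start. CCAAT was found in 4 of 7 (*Snai1*, *Twist1*, *Msx1* and *Msx2*) and in 33.9% of all promoters. TATAAA was found in *Twist1* alone among the 7, 126 to 121 bases before the start, and in 12.4% of all. GGGCGG was found in 5 of 7 and in 32.7% of all. The palindromic AP-2 motif GCCNNNGGC was found in 1 of 7, *Snai1*, where it overlaps the CCAAT match, and in 13.7% of all. The homeodomain motif TAATTG was found in 2 of 7, *Tfap2a* and *Tfap2b*, and in 7.17% of all. A match describes these letters only and shows no binding.

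Levels are given as the log2 of the processed signal minus the 75th percentile of that array, so that 0 stands for the 75th percentile and a step of 1 for 2-fold, and the level of one probe is not set against that of another. All 12 probes were well above background on 8 of 8 arrays, none of their 21 spots per array carried an outlier flag or was saturated, and all 12 were among the 33093 probes tested. Array and group are tied in one respect: the WT father embryos were all on slide 1 and the HET father embryos all on slide 2, so slide and father cannot be told apart. WT father 1 and HET father 3 stood apart, with array medians of -3.75 and -3.13 against -4.58 to -4.23 on the others and 39530 and 38878 probes well above background against 29203 to 35486. HET father 4 had a median local background of 133 units, where the other arrays of its slide had 30 to 32. The WT father arrays had 50 to 51, so local background also differed between the slides. Its part in the levels of dim probes was not tested. The number of arrays limits the precision, and where nothing shows separate fathers, p-values measure the spread between these embryos only.

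No regulator passed the test between the father groups. With limma across all tested probes, 0 of the 12 probes passed an adjusted p of 0.01 with a 2-fold change, against 0% of all 33093 probes (0 probes). At an unadjusted p of 0.05, 0 of 12 passed against 4.4% of all tested probes (1455). The groups overlapped at all 12 probes, where 3.23% of all probes had groups that did not overlap. The HET father embryos had the higher mean at 6 probes and the lower at 6, and the difference, HET father minus WT father on the log2 scale, ran from -0.19 (*Tfap2b*) to 0.15 (*Twist1*), with a median of 0.00 as over all tested probes, although with arrays shifted to their median, or with normexp and quantile normalisation, signs turned for *Snai2*, *Msx1*, *Msx2*, *Ets1* and *Tfap2a*, each in at least 1 of these. The median size without sign was 0.09, beside 0.10 for all tested probes. The 95% interval lay inside a 2-fold change in both directions at 12 of 12 probes. The widest, at the dim *Tfap2a* probe, ran from 0.552-fold to 1.57-fold. This bound depended on the setting: with arrays shifted to their median the lower limit was -1.07 for *Tfap2b* and -1.03 for *Sox10*, and for the dim *Tfap2a* probe it reached -1.15 when the replicate number, and -1.12 when the embryo code, was a block. The adjusted p was 0.9996 for each of the 12.

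**Figure D1:**
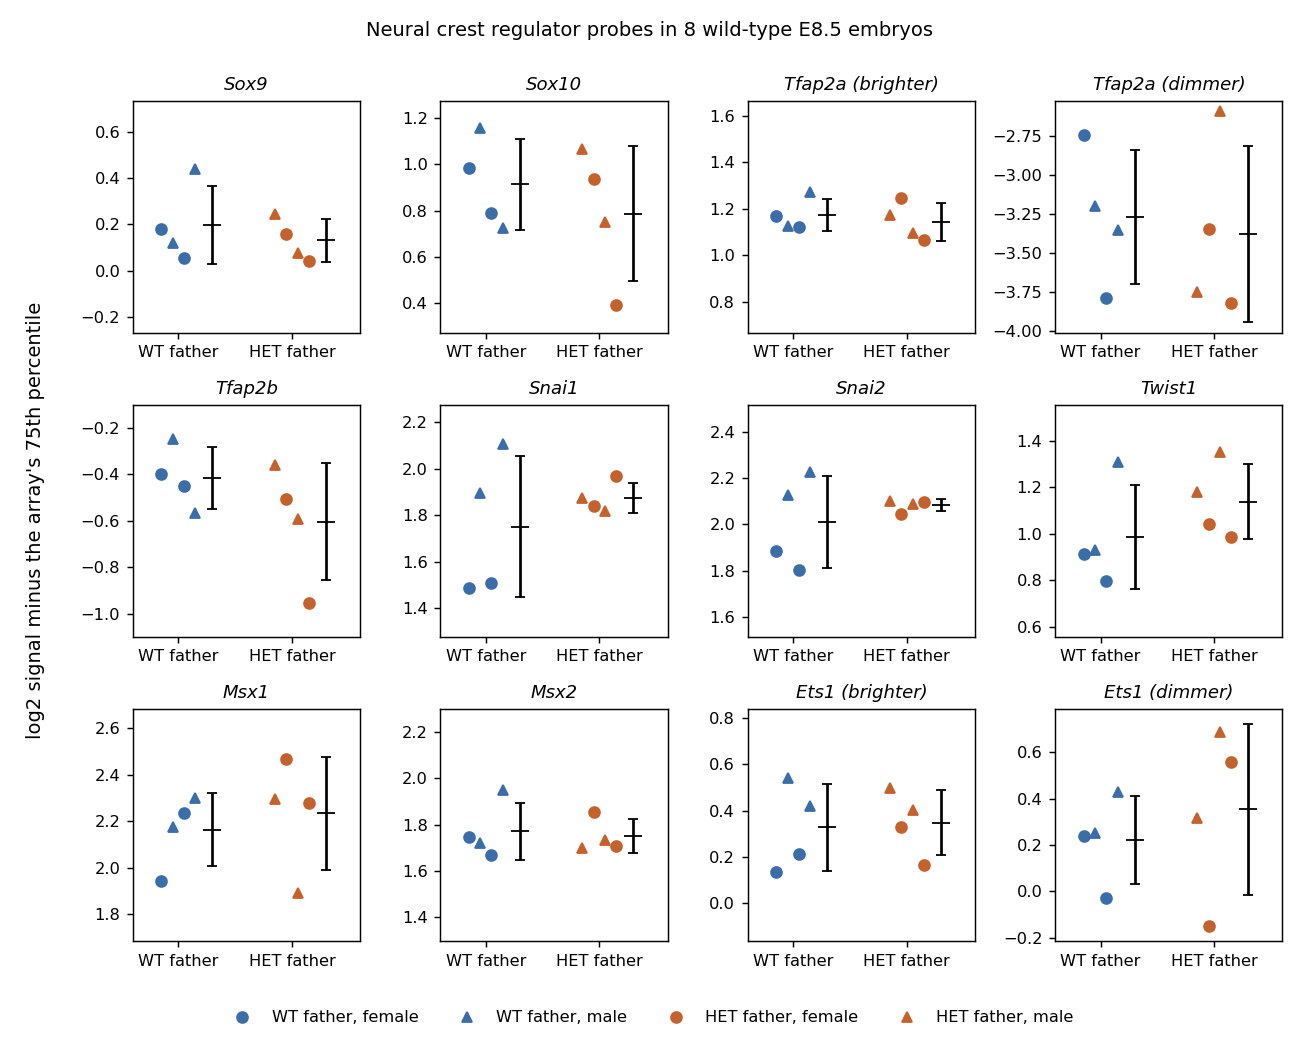
Level of each of the 12 probes (log2 signal minus the array's 75th percentile, y axis; each panel spans at least 1 log2 unit) in the 4 WT father and 4 HET father embryos, females as circles and males as triangles, with mean and SD as black bars. The groups overlap in every panel, and for *Snai1* and *Snai2* the 4 HET father embryos lie above the 2 females and below the highest male of WT fathers.

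**Figure D2:**
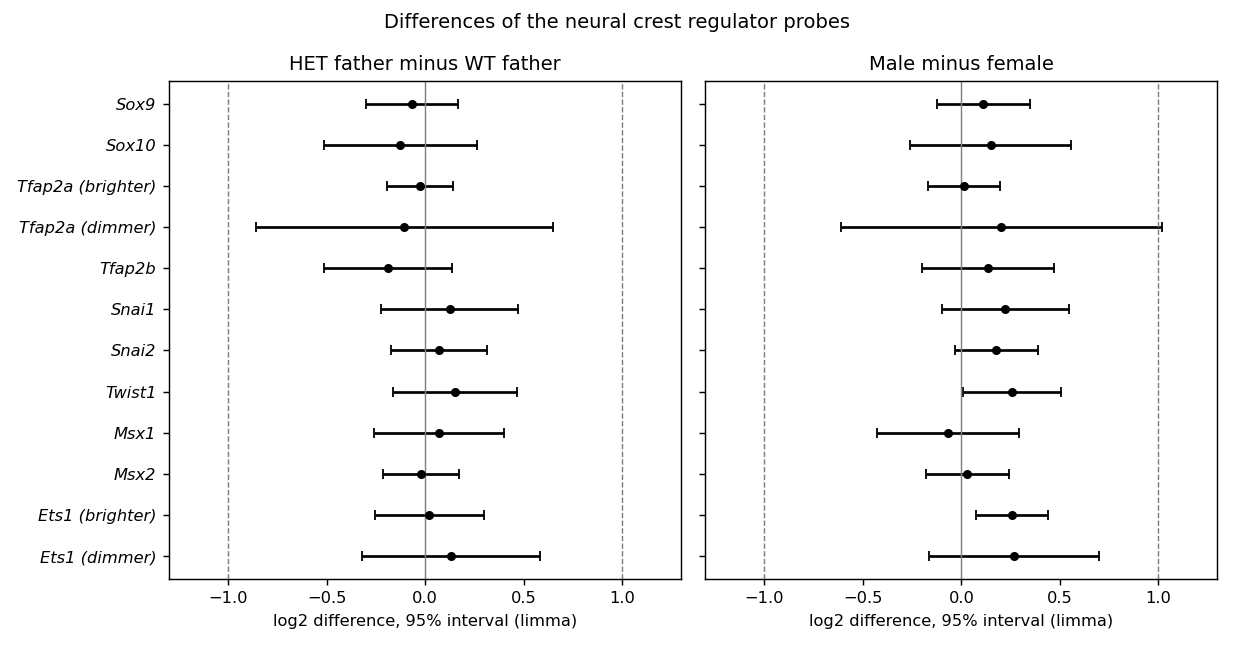
Difference between father groups (left) and between sexes (right) for each probe, in log2 units with the 95% interval from limma, and dashed lines at 2-fold. The intervals for the fathers all include 0 and stay between the dashed lines, and for the sexes 2 of 12 intervals lie above 0 (*Twist1* and the brighter *Ets1* probe).

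The AP-2 genes encode DNA-binding factors of early crest and surface ectoderm. The brighter *Tfap2a* probe (A_55_P1964812, accession NM_001122948) had levels of 1.17, 1.13, 1.12 and 1.27 in WT father embryos 1 to 4 and of 1.17, 1.25, 1.095 and 1.06 in HET father embryos 1 to 4. This was the steadiest of the probes, with a span of 1.15-fold from the lowest to the highest embryo and a difference of -0.03 ± 0.07 (SE). The other *Tfap2a* probe (A_55_P2199463, accession NM_011547) was dim, at -2.75, -3.20, -3.79 and -3.35 in WT father embryos and -3.75, -3.35, -2.59 and -3.82 in HET father embryos. Its highest values fell on WT father 1 and HET father 3, the arrays with the raised medians, and the part of that in its spread was not tested. The difference was -0.11 ± 0.32, and the probe spanned 2.35-fold. The *Tfap2a* probes showed no detectable correlation (Pearson's r = 0.04, exact permutation p = 0.928, Spearman's rho = 0.12, exact permutation p = 0.793, over 8 embryos, r = 0.13 without the 2 embryos farthest from the median).

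*Tfap2b*, the paralog made in crest and later in kidney and limb, was at -0.40, -0.25, -0.45 and -0.57 in WT father embryos and at -0.36, -0.50, -0.59 and -0.95 in HET father embryos. The lowest value was that of HET father 4, the array with the raised local background, and the other embryos of both groups overlapped. The group means were -0.42 ± 0.13 (SD, n = 4) and -0.60 ± 0.25 (SD, n = 4), the largest difference among the 12 probes (-0.19 ± 0.14 SE, 95% interval -0.51 to 0.14). With 1 embryo left out it ran from -0.27 without HET father 1 to -0.07 without HET father 4.

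The Msx genes encode homeodomain repressors that respond to BMP signals at the neural plate border. *Msx1* had levels of 1.94, 2.17, 2.24 and 2.30 in WT father embryos and of 2.29, 2.47, 1.89 and 2.28 in HET father embryos. The 2 lowest embryos were WT father 1 and HET father 3, the arrays with raised medians, 1 in each group. The difference was 0.07 ± 0.14 (SE), and -0.0038 without WT father 1. *Msx2* was at 1.75, 1.72, 1.67 and 1.95 in WT father embryos and at 1.70, 1.86, 1.74 and 1.71 in HET father embryos, a span of 1.21-fold with WT father 4 on top and a difference of -0.02 ± 0.08.

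The Snail factors bind E-boxes and repress *Cdh1*, which encodes E-cadherin. *Snai1* was at 1.49, 1.90, 1.51 and 2.11 in WT father embryos and at 1.87, 1.84, 1.82 and 1.97 in HET father embryos. The WT father group thus held both the lowest values, in its 2 females, and the highest, in a male, while the HET father embryos stayed within a narrow range (SD 0.07 against 0.30, n = 4 each). *Snai2* showed the same arrangement, at 1.89, 2.13, 1.80 and 2.23 in WT father embryos and at 2.10, 2.04, 2.09 and 2.10 in HET father embryos (SD 0.20 and 0.03). The differences between group means were 0.13 ± 0.15 (SE) for *Snai1* and 0.07 ± 0.10 for *Snai2*. Whether the spread itself differed between groups was not tested. With 1 embryo left out, the difference for *Snai1* ran from 0.04 without WT father 1 to 0.24 without WT father 4 (0.04 also without WT father 3). That for *Snai2* ran from 0.0018 without WT father 3 to 0.14 without WT father 4, with 0.03 without WT father 1 and 0.11 without WT father 2.

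*Twist1* encodes a basic helix-loop-helix factor of crest and head mesenchyme. Its levels were 0.91, 0.93, 0.80 and 1.31 in WT father embryos and 1.18, 1.04, 1.35 and 0.99 in HET father embryos. HET father 3 and WT father 4, both males, were highest. The difference of 0.15 ± 0.14 (SE, 95% interval -0.16 to 0.47) ran from 0.08 without HET father 3 to 0.26 without WT father 4 when 1 embryo was left out, and was 0.06 without both HET father 3 and WT father 1.

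The Sox genes encode high mobility group factors, *Sox9* for early crest and cartilage and *Sox10* for migrating crest, glia and pigment cells. *Sox10* was at 0.99, 1.16, 0.79 and 0.72 in WT father embryos and at 1.07, 0.94, 0.75 and 0.39 in HET father embryos. HET father 4, the array with the raised local background, was lowest and WT father 2 highest. The span was 1.70-fold, the largest among the genes' brightest probes. The difference of -0.13 ± 0.17 (SE) became 0.01 without HET father 4. *Sox9* was at 0.18, 0.12, 0.06 and 0.44 in WT father embryos and at 0.25, 0.16, 0.08 and 0.04 in HET father embryos (difference -0.07 ± 0.10). Only WT father 4 stood off from the rest, and without it the difference was 0.01.

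The *Sox9* probe was printed on 10 spots per array and so gave a measure of spot-to-spot error. The SD between the 10 spots of 1 array was 0.04 to 0.07 log2 units. The pooled SD between embryos within a group was 0.13. In WT father 4 the 10 spots ran from 0.38 to 0.51, above all *Sox9* spots of the other arrays, whose highest was 0.31.

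*Ets1* encodes a factor of cranial crest, endothelium and blood cells. Its brighter probe (A_52_P194250) was at 0.13, 0.54, 0.21 and 0.42 in WT father embryos and at 0.50, 0.33, 0.40 and 0.16 in HET father embryos, with a difference of 0.02 ± 0.12 (SE). The dimmer probe (A_52_P232830) was at 0.24, 0.25, -0.03 and 0.43 in WT father embryos and at 0.32, -0.15, 0.69 and 0.56 in HET father embryos, with a difference of 0.13 ± 0.19. HET father 4 was the lowest of its group on the first probe and high on the second, and across 8 embryos the *Ets1* probes showed no detectable correlation (r = 0.14, exact permutation p = 0.730, rho = 0.19, exact permutation p = 0.665, r = 0.51 without the 2 embryos farthest from the median). Adjusted over the pairs of probes of *Tfap2a* and *Ets1*, p was 0.928 for both values of r and 0.793 for both of rho.

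Across the 12 probes the pooled SD within groups ran from 0.08 (*Tfap2a*, brighter) to 0.50 (*Tfap2a*, dimmer), with a median of 0.20, beside 0.21 for all tested probes and 0.18 for probes well above background on all 8 arrays. Averaged over the brightest probe of the 10 genes, an embryo's level relative to the mean of all embryos was -0.08, 0.07, -0.11 and 0.13 in WT father embryos 1 to 4 and 0.09, 0.05, -0.03 and -0.11 in HET father embryos 1 to 4. WT father 4 was thus highest and WT father 3 and HET father 4 lowest, and both groups covered almost the same range. In WT father 3 the average was low through the Snail genes and *Twist1* (*Snai1* -0.30, *Snai2* -0.24, *Twist1* -0.27), whereas in HET father 4 it was low through *Sox10* (-0.46) and *Tfap2b* (-0.45) while *Snai1* stood at 0.16.

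**Figure D3:**
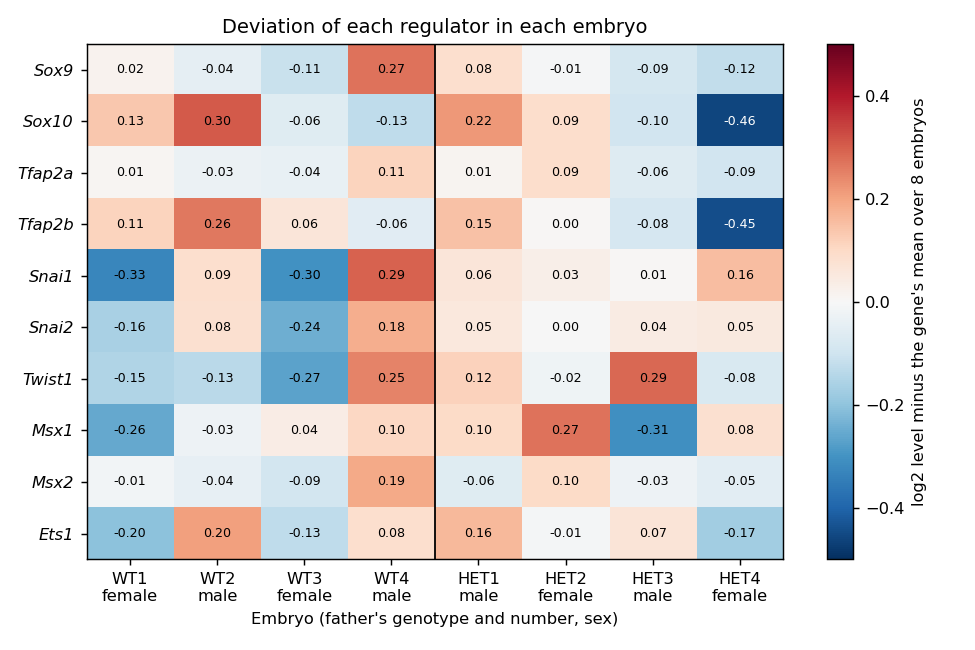
Level of each regulator's brightest probe in each embryo minus that gene's mean over the 8 embryos, in log2 units (red above, blue below), with WT father embryos left of the line and HET father embryos right of it. *Snai1* and *Snai2* are lowest in WT father 1 and 3, and *Sox10* and *Tfap2b* are lowest in HET father 4 (-0.46 and -0.45).

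Pairs of regulators were then compared across the 8 embryos, over all 45 pairs of the 10 genes. Of these 34 had a positive r and 11 a negative one, with a median r of 0.33. Pairs of other genes were not counted, so whether this is particular to the regulators was not tested. After Benjamini-Hochberg adjustment over the 45 pairs, 2 pairs had an exact permutation p for r under 0.05. *Sox10* and *Tfap2b* had r = 0.96 (exact permutation p = 5.46e-04, adjusted 0.0245) and rho = 0.95 (exact permutation p = 0.00114, adjusted 0.0513). Without HET father 4 and WT father 2, the 2 embryos farthest from the median of *Sox10*, r was 0.84. Without HET father 4 alone, the array with the raised local background, it was 0.91. The part of that background in this relation was not tested. *Snai1* and *Snai2* had r = 0.96 (exact permutation p = 0.00191, adjusted 0.043) and rho = 0.88 (exact permutation p = 0.00724, adjusted 0.109), and r was 0.88 without WT father 1 and 3. With rho in place of r, no pair passed after adjustment.

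Each slide held 4 arrays, too few for a value within a slide. After each gene was centred on its mean per slide, r was 0.98 for *Sox10* and *Tfap2b* and 0.96 for *Snai1* and *Snai2*. Without WT father 1 and HET father 3, r was 0.96 and 0.98 in the same order. Embryos that share a father or litter are not independent, which the permutation does not take into account. The next pair, *Tfap2a* and *Msx2*, had r = 0.84 (exact permutation p = 0.01002, adjusted 0.113) and rho = 0.60 (exact permutation p = 0.132, adjusted 0.770), and r was 0.11 without WT father 4 and HET father 2, so that this relation rested on those embryos. *Sox9* and *Tfap2a* had r = 0.83 (exact permutation p = 0.00707, adjusted 0.106) and rho = 0.90 (exact permutation p = 0.00456, adjusted 0.103), and r stayed at 0.80 without the 2 farthest embryos.

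Among pairs of the same family, *Snai1* and *Snai2* had the highest r, 0.96, and the highest rho, 0.88. Between families, *Sox10* with *Tfap2b* and *Sox9* with *Tfap2a* had a higher rho, and *Sox10* with *Tfap2b* a higher r after centring per slide. In the same-family pair *Msx1* and *Msx2* r was 0.35 (rho 0.24). For *Tfap2a* and *Tfap2b* r was 0.32 (rho 0.33), and for *Sox9* and *Sox10* it was 0.20 (rho 0.33). The exact permutation p for these 3 values of r was 0.408, 0.449 and 0.612, and the adjusted p was 0.794, 0.794 and 0.810. Without the 2 farthest embryos r was 0.53, 0.80 and 0.73. With HET father 4 alone left out it was 0.40, -0.29 and -0.16, so these values depended on which embryos were kept.

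**Figure D4:**
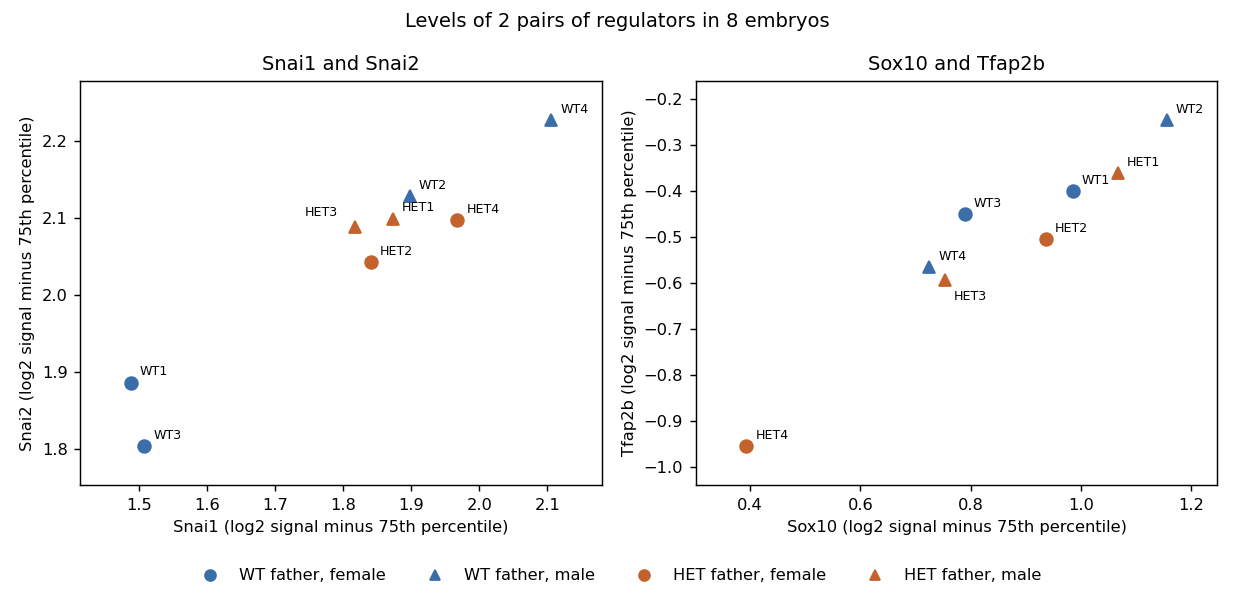
Levels of *Snai1* against *Snai2* (left) and of *Sox10* against *Tfap2b* (right) in the 8 embryos, both axes in log2 signal minus the array's 75th percentile, coloured by father and shaped by sex. WT father 1 and 3 lie at the lower left for the Snail genes and HET father 4 lies at the lower left for *Sox10* and *Tfap2b* (0.39 and -0.95).

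Of 15362 other named genes with a tested probe and a value on every array, those most like the average of the 10 regulators over the 8 embryos were *Ogfod3* (r = 0.98), *Tmem255a* (0.97), *Tbcc* (0.94), *Hectd2* (0.94) and *Col9a1* (0.93). These are the highest of many correlations over 8 points and are given as a description, without a test.

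Each group held females and males, so the sexes were also compared, with the father as a term. With limma, 11 of 33093 tested probes (0.0332%) passed an adjusted p of 0.01 with a 2-fold change, and 0 of the 12 regulator probes were among them. At an unadjusted p of 0.05, 2 of 12 passed, the brighter *Ets1* probe and *Twist1*, where 3.28% of all tested probes did, and no adjusted p was under 0.9996. The brighter *Ets1* probe was higher in males by 0.26 ± 0.08 (SE, limma adjusted p = 0.9996), with all 4 males, at 0.40 to 0.54, above all 4 females, at 0.13 to 0.33. It was the only one of the 12 probes at which the sexes did not overlap, against 2.57% of all tested probes. The dimmer *Ets1* probe differed by 0.27 ± 0.18. *Twist1* was higher in males by 0.26 ± 0.10 (SE, limma adjusted p = 0.9996).

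Males had the higher mean at 11 of 12 probes, *Msx1* being the exception (-0.07 ± 0.15), and the median difference, male minus female, was 0.16 beside 0.02 over all tested probes, of which 54.5% were higher in males. The probes are not independent of each other. With each array shifted to its median in place of its 75th percentile, no regulator passed an unadjusted p of 0.05 for sex and *Sox9*, *Msx1*, *Msx2*, *Tfap2b* and the brighter *Tfap2a* probe had the lower mean in males, while the median over all tested probes moved to -0.13. When embryos that share a code were treated as a random block, 4 of 12 passed an unadjusted p of 0.05 (*Snai1*, *Snai2*, *Twist1* and the brighter *Ets1* probe), with 1988 of all tested probes, and the lowest adjusted p was 0.811. Without WT father 1 and HET father 3, *Ets1* alone passed. The sex difference of *Snai1* was 0.22 ± 0.13. It lay mainly in the WT father embryos, as the values above show, and the test of the difference between father groups gave an unadjusted limma p of 0.0166 and an adjusted p of 0.9955, the lowest of both kinds among the 12 probes. WT father 1, one of the females with low Snail genes, is also one of the arrays with raised medians, and WT father 3, the other one, is not.

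Other crest genes were counted on 6 lists of 79 genes in all. Of the 72 genes with a tested probe, 0 were called and 4 were at an unadjusted limma p under 0.05, each of them lower with HET fathers, a share close to the 4.4% of all tested probes. These were *Pax3*, *Dll1*, *Mitf* and *Alx4*, and no adjusted p among the 72 genes was under 0.9996. The median difference over all tested probes was 0.00, against which each list's median is given. Of all tested probes 50.7% were higher with HET fathers, the share to set beside each list's counts of higher and lower genes.

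Of 8 paralogs of the regulators, 4 had a tested probe (2 higher and 2 lower with HET fathers, median 0.02), and *Sox8*, *Tfap2d*, *Tfap2e* and *Snai3* were well above background on too few arrays. *Twist2*, the paralog of *Twist1* in mesenchyme and dermis, was at -0.32, 0.67, -0.71 and 0.70 in WT father embryos and at 0.96, 0.77, 0.82 and 0.75 in HET father embryos. The groups did not overlap, and the low embryos were WT father 1 and 3, those with the lowest *Snai1* and *Snai2*. The difference was 0.74 ± 0.32 (SE, limma adjusted p = 0.9996). *Tfap2c*, an AP-2 gene of trophoblast, germ cells and ectoderm, differed by -0.16 ± 0.10.

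All 10 neural plate border genes were tested, 9 of them lower with HET fathers and 1 higher (median -0.14). Genes of a list are not independent of each other. The list's mean deviation overlapped between groups, at -0.03 to 0.31 in WT father and -0.33 to 0.38 in HET father embryos. HET father 3 was the highest embryo. *Pax3*, a paired-box factor of the dorsal neural tube and crest, was at 1.76, 1.86, 1.92 and 1.97 in WT father embryos and at 1.66, 1.79, 1.52 and 1.65 in HET father embryos, where only HET father 2 reached into the range of the WT father group. The difference was -0.22 ± 0.08 (SE). *Pax7*, its close relative, differed by -0.22 ± 0.10. *Zic2*, a zinc finger factor of the neural folds, had the widest range of the list after the dim *Dlx6* (both chosen after their values were seen), at 0.63, 0.62, -0.87 and 1.54 in WT father embryos and at -1.10, -1.19, 1.23 and -0.07 in HET father embryos.

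Of 15 other crest specifiers, all tested, 7 were higher and 8 lower (median -0.03). Named by the smallest p, *Mycn*, a proto-oncogene of proliferating progenitors, differed by -0.18 ± 0.09, and *Crabp1*, a retinoic acid binding protein of migrating crest, by 0.29 ± 0.15. Of 18 delamination and migration genes, 8 were higher and 10 lower (median -0.04). *Nrp2*, a semaphorin receptor that guides crest streams, was at 4.42 to 4.72 in WT father embryos and at 4.74 to 4.95 in HET father embryos without overlap (0.20 ± 0.09). *Cdh6*, a cadherin of premigratory crest, differed by -0.17 ± 0.10.

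Of 10 genes of crest-inducing signals, 5 were higher and 5 lower (median 0.03). *Dll1*, a Notch ligand, differed by -0.24 ± 0.10 and *Bmp7*, a BMP ligand, by 0.37 ± 0.32. Of 18 genes of crest derivatives 15 were tested, 10 higher and 5 lower (median 0.06). *Alx4*, a homeobox gene of facial mesenchyme, was at -3.91 to -3.50 in WT father embryos and at -4.68 to -4.15 in HET father embryos (-0.54 ± 0.15 SE, limma adjusted p = 0.9996). *Mitf*, the pigment cell factor that is also made in the eye, was at -0.71 to -0.43 and at -0.93 to -0.73 (-0.25 ± 0.08, limma adjusted p = 0.9996). Neither gene's groups overlapped, where 3.23% of all tested probes had groups that did not.

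**Figure D5:**
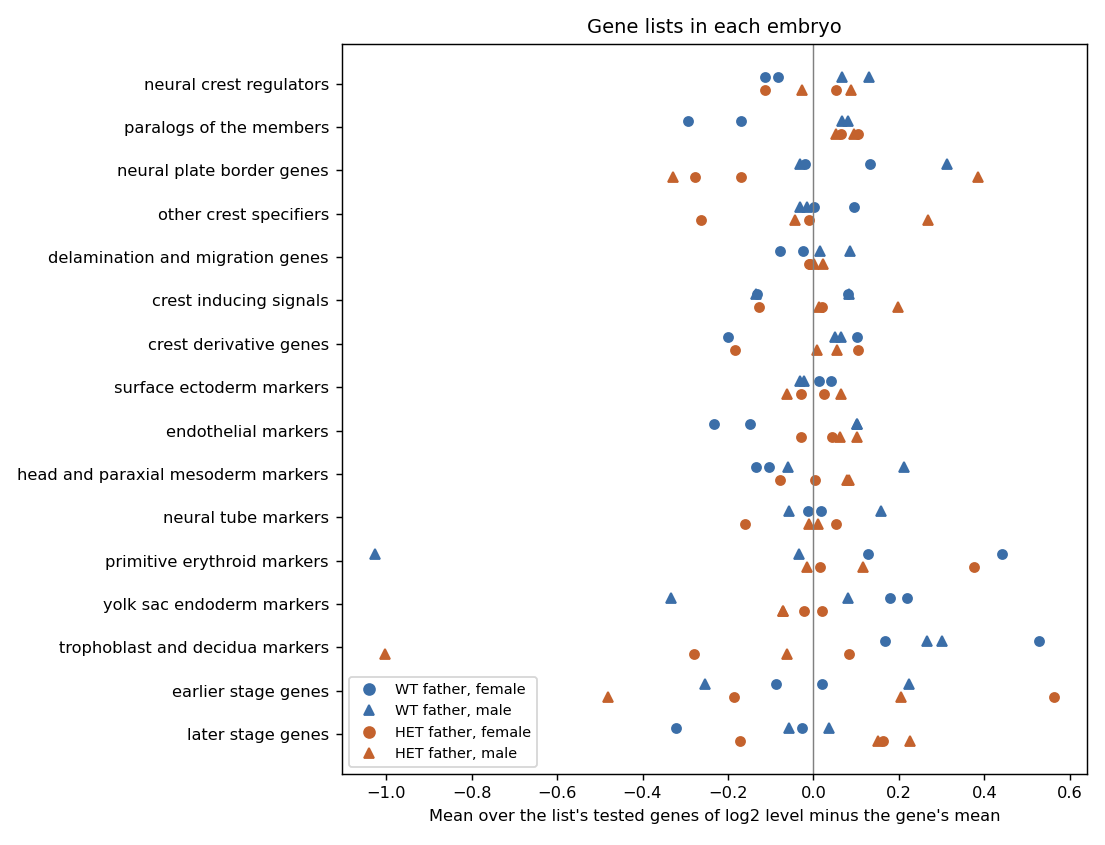
For each gene list (rows) and embryo (points, coloured by father and shaped by sex), the mean over the list's tested genes of the log2 level minus the gene's mean over 8 embryos. The regulators lie between -0.11 and 0.13 in both groups, WT father 4 is far to the left for primitive erythroid markers (-1.03), and the groups do not overlap for trophoblast and decidua markers. In that last list *Prl8a2* had the largest difference (-2.46) and weighed most in the mean.

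Markers of the other cell types in the sample were read from 9 further lists, with 76 tested genes, of which 0 were called and 1 was at an unadjusted limma p under 0.05, a smaller share than the 4.4% of all tested probes. This was *Prl8a2*, a decidual prolactin gene, at 1.56 to 2.92 in WT father embryos and at -2.61 to 0.72 in HET father embryos (-2.46 ± 0.75 SE, limma adjusted p = 0.9996). The mean deviation over the 6 tested of 8 trophoblast and decidua genes was 0.17 to 0.53 in the WT father group and -1.003 to 0.08 in the HET father group, the lowest being HET father 3. All 6 were lower with HET fathers, with differences from -2.46 (*Prl8a2*) to -0.04 (*Ascl2*) and a median of -0.16. *Prl8a2* thus weighed most in this mean. It was the only tested gene of the list whose groups did not overlap, where 3.23% of all tested probes did not. Whether the means separate without it was not tested. The summed scaled signal of that list, in multiples of the 75th percentile, overlapped (16.7 to 43.8 and 16.2 to 40.1). *Tpbpa*, a trophoblast gene of the list, was not well above background on any array, while *Prl3d1*, *Ascl2* and *Gcm1* were on 8 of 8. The part of these tissues in the regulators' levels was not tested.

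All 8 primitive erythroid genes were higher with HET fathers (median 0.19, 0 at an unadjusted p under 0.05), with a summed signal of 517 to 1232 and of 842 to 1061, and the lowest embryo was WT father 4, in which the regulators' average was highest. The other lists had medians between -0.04 and 0.18. They were surface ectoderm (10 of 10 tested, 6 higher, median 0.01), endothelium (12 of 12, 11 higher, 0.07), head and paraxial mesoderm (11 of 11, 8 higher, 0.01), neural tube (9 of 10, 4 higher, -0.04), yolk sac endoderm (9 of 9, 5 higher, 0.03), genes of earlier stages (6 of 7, 3 higher, 0.05) and genes of later stages (5 of 9, 4 higher, 0.18). The genes with the smallest p on these lists were *Grhl3* (0.15 ± 0.07 SE) and *Trp63* (-0.15 ± 0.10) of surface ectoderm, *Sox18* (0.24 ± 0.15) and *Tie1* (0.18 ± 0.13) of endothelium, *Meox1* (0.33 ± 0.26) and *Foxc2* (0.09 ± 0.13) of mesoderm, and *Egr2* (-0.22 ± 0.12) and *Pax6* (-0.17 ± 0.10) of the neural tube. They were *Klf1* (0.53 ± 0.29) and *Alas2* (0.36 ± 0.37) of erythroid cells, *Apob* (-0.36 ± 0.20) and *Apoa4* (-0.44 ± 0.29) of yolk sac endoderm, *Prl8a2* and *Pgr* (-0.26 ± 0.16) of trophoblast and decidua, *Nodal* (0.10 ± 0.12) and *Nanog* (-0.14 ± 0.18) of earlier stages, and *Hoxd9* (0.18 ± 0.09) and *Lhx3* (0.47 ± 0.27) of later stages. In the same 2 WT father females in which the Snail genes were low, the endothelial list was also lowest, at -0.15 and -0.23 against -0.03 to 0.10 in the other 6 embryos, and so was the head and paraxial mesoderm list, at -0.14 and -0.10 against -0.08 to 0.21. The average of the 4 tested paralogs was lowest there too, at -0.17 and -0.29 against 0.05 to 0.10, through *Twist2*, whose values are given above. *Tfap2c*, *Msx3* and *Ets2* were not lowest in either embryo, and *Tfap2c* was highest in WT father 1 (0.28). The part of these tissues in the Snail values was not tested. WT father 4, with the highest regulator average, was lowest for yolk sac endoderm (-0.33) as well as for erythroid genes. It was highest for head and paraxial mesoderm (0.21), the neural tube (0.16) and delamination and migration genes (0.09). For surface ectoderm (-0.03) and endothelium (0.10) it was neither lowest nor highest. The part of tissue amounts in its regulator levels was not tested.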

How the data were processed

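RNA of 8 wild-type E8.5 embryos was measured on 1 one-colour Agilent array each. Per the submitters' processing notes the authors used Agilent Feature Extraction (version 11.0.1.1). Its processed intensity, as deposited, has local background removed and a spatial trend corrected, and arrays were not brought to a common scale. The methods name a percentile shift without its percentile, flagged features were excluded, and a cut-off of adjusted p 0.01 with 2-fold is given. A deposited intensity table of the whole series differed from the scanner files by at most 0.497% and served as an alternative. The array's own intervals are on mm9.

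Here log2 intensities were shifted by each array's 75th percentile, without control or flagged spots, and the spots that share a probe gave 1 mean. Tested were the 33093 probes outside the lowest 20% by mean whose signal passed the scanner’s well-above-background flag on 4 or more of 8 arrays. Gene names came from RefSeq's GRCm38.p6 gene list, used for names only, in which 27235 of 28685 accessioned probes had 1 symbol. Differences were tested with limma 3.58.1 (R 4.3.3, data.table, version 1.17.8) with Benjamini-Hochberg adjustment over all tested probes, between fathers and, with father as a term, between sexes. The procedure was tested on simulated data, made by shuffling each probe's residuals over the arrays, which does not keep effects shared by a whole array. Correlations over embryos used exact permutation, two-sided, with Python 3.11.15, numpy 2.4.6, pandas 2.3.3 and scipy 1.17.1, and plots used matplotlib 3.10.9.

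The 10 genes and the other lists were chosen with earlier results of these data known. Named were all 10 regulators with every probe, the brightest tested probe standing for a gene, from each other list the 2 genes with the smallest father p and any gene called, and the 5 genes most like the regulators' average. Alternatives were another shift, quantile normalisation, normexp with an offset of 50, the series table, other filters, blocks, robust and weighted fits, sex as a term and leaving out each embryo. Replicate numbers were not taken as pairs.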

Additional observations from a re-analysis of the deposited data

Results flagged for a closer look

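Outlying embryos were looked for in 56 groups of 4 (the 12 probes, the regulators' average and the 15 other lists, in each father group), where chance alone gives about 2.8. One stood out. In the WT father group the mean deviation of the crest derivative genes was -0.20 in embryo 3 against 0.05 to 0.10 in the other embryos, a gap of 0.832 of the group's range, just past the 95% critical value of Dixon's test for 4 samples. This is the female in which *Snai2* and *Twist1* were also lowest. No regulator probe had a sex difference that differed between father groups after adjustment (limma, lowest adjusted p = 0.9955).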

How the results depend on the processing

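Under every alternative run, 0 of the 12 regulator probes were called between fathers and 0 were at an unadjusted limma p under 0.05 (lowest 0.0502, for *Twist1* without WT father 4, lowest adjusted p 0.571). Of 202 recomputed fold changes of the 10 genes (the brightest probe, and for *Tfap2a* and *Ets1* also the mean over both probes), 183 kept their sign and 19 turned it. With a shift to the array median, which moved the median of all probes by -0.10, the turned values were *Snai2* -0.0352, *Msx1* -0.0360 and *Ets1* -0.0851. With normexp and quantile they were *Tfap2a* 0.0271, *Msx2* 0.0188 and *Ets1* -0.0893, and with array weights *Tfap2a* 0.0190, *Msx2* 0.0249 and *Ets1* -0.0512. Leaving out 1 embryo at a time gave ranges of -0.115 to 0.0123 for *Sox9*, -0.220 to 0.00524 for *Sox10*, -0.0621 to 0.00485 for *Tfap2a*, -0.269 to -0.0715 for *Tfap2b*, 0.0377 to 0.244 for *Snai1*, 0.00178 to 0.143 for *Snai2*, 0.0820 to 0.261 for *Twist1*, -0.0090 to 0.184 for *Msx1*, -0.0574 to 0.0368 for *Msx2* and -0.0434 to 0.0925 for *Ets1*. Without both WT father 1 and HET father 3, a choice made after seeing the data, *Ets1* was -0.0616. Of all probes, 0 were called between fathers in the main comparison (1455 at an unadjusted p under 0.05) and 0 to 1 with 1 embryo left out (1 without WT father 1 and 1 without HET father 4), and 1 without both embryos named. Between sexes 11 were called, and 5 with no filter, 0 with the filter on all 8 arrays, 4 to 9 with 1 embryo left out and 7 without both embryos named, none of them a regulator. Same-numbered embryos did not deviate together (r from -0.59 to -0.05, 0 of 4 best matched by their own number). With the replicate block, 0 probes were called between fathers and 0 between sexes, and 874 were at an unadjusted p under 0.05 between fathers. The causes of these changes were not tested.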
